A study of Homo sapiens with 2 samples.

Results

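The genes described here are 6 genes grouped as brakes on fat cell formation, which hold precursor cells back from becoming adipocytes. They are Dlk1, Hes1, Runx1t1, Taz, Tsc22d3 and Twist1, of which Taz, annotated as tafazzin, carries the symbol of a known brake without being that gene. They were chosen by symbol from the 84 gene wells of an adipogenesis PCR array. All 6 were found in the deposited tables. The array was run on HepG2 cells, an established human hepatoma line, in 2 groups of 1 sample each. The control sample was untreated. The other sample received MOES, a boiled and filtered aqueous extract of Moringa oleifera seeds, for 72 h. The title of the treated sample gives a dose of 5 mg/mL, whereas the array protocol in the labels gives 2.5 mg/mL, and the tables do not settle which was used. With 1 sample per group no value below has a replicate error, no test could be made and no p-value is given.

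An adipocyte forms when a precursor cell switches on C/EBP factors and then PPAR gamma, the nuclear receptor that drives the fat cell programme. Brakes act at several points of this route. Some keep the precursor in an immature state through signals between neighbouring cells, and others are nuclear proteins that repress C/EBP factors, PPAR gamma or their coactivators. HepG2 cells come from a liver tumour and do not form adipocytes, so the array reads these genes outside the cell type they are best known for.

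Each well was read as a threshold cycle (Ct), the point of the PCR at which the fluorescence of its product passed a set level. A lower Ct means more template, and 1 cycle corresponds to a factor of 2. The deposited Ct values stop at 35, which was taken as a ceiling. A gene at 35 in the MOES sample therefore has no measured level, and its difference is given as a minimum ("at least N-fold"). The delta Ct is the Ct minus the mean Ct of B2m, Gusb and Hsp90ab1, the 3 reference genes whose mean gives the authors' own delta Ct. The log2 fold change is the delta Ct of the control minus that of the MOES sample, and a negative value means less template with MOES. Less RNA of a gene per cell and fewer cells that carry it cannot be told apart in such bulk samples.

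Of the 6 genes, 4 were below the lower limit of the study, a fold change of 0.5, in the MOES sample. Tsc22d3, the glucocorticoid-induced leucine zipper GILZ, was at least 102-fold lower and Twist1, a repressor of the basic helix-loop-helix class, at least 53.4-fold lower. Taz was 8.34-fold lower and Hes1 at least 5.74-fold lower. Dlk1 had a fold change of 0.758 and Runx1t1 of 1.05, and none of the 6 was above the upper limit of 1.5. On the whole array 67.9% of the genes were below 0.5 and 8.33% above 1.5, so the count of 4 of 6 lies at the array's own level.

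Several facts about the plates bear on every value. B2m, Gusb and Hsp90ab1 differed between the samples by at most 0.02 cycles, but the other 2 reference genes were at 35 in the MOES sample, Actb from 34.05 and Gapdh from 28.46. The 3 reverse transcription control wells (RTC) were between 31.41 and 32.1 in the control and all at 35 in the MOES sample. The 3 positive PCR control wells were at 35 in both samples, so these controls do not vouch for any well of either sample, at 35 or under it. All 59 MOES gene values under 35 are whole numbers, against 0 of 78 in the control. In the same sample B2m, Gusb, Hsp90ab1 and the genomic DNA control carry decimals, at 23.82, 25.66, 25.3 and 29.56. How the whole numbers arose is not known, so the shifts of 0.5 cycle used below are an assumption. A difference between a pair of wells had an SD of 0.530 cycles, estimated from the RTC wells of the control and called the well SD here. The labels name the human array, whereas the tables carry gene symbols in the mouse style, a genomic DNA control named MGDC and mouse clone names among the older symbols. Which species the primers were made for was not tested. As a check of the cell type, the hepatocyte markers Ppara, Nr0b2 and Agt were read at 28.51, 28.76 and 33.91 in untreated cells, so that Agt, an abundant product of liver cells, was among the late wells. The adipocyte markers Adig, Cfd, Adipoq, Retn, Fabp4 and Lep were at 25.1, 26.24, 27.37, 27.61, 29.9 and 33.89 in untreated cells. Adig, Cfd, Adipoq and Retn were thus earlier than all 3 hepatocyte markers. Ucp1 and Prdm16, markers of brown adipocytes, were at 29.5 and 31.82. A wider list of 9 adipocyte products had a median Ct of 29.07, from 25.1 to 33.89. With MOES all 3 hepatocyte markers were below 0.5, Ppara 22.3-fold lower, Nr0b2 9.38-fold lower and Agt at least 2.11-fold lower, and their median log2 fold change was -3.23. They were thus low together with 4 of the 6 genes, as were 67.9% of all 84 genes of the array. The part of these markers in the differences of the 6 genes was not tested.

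**Figure D1:**
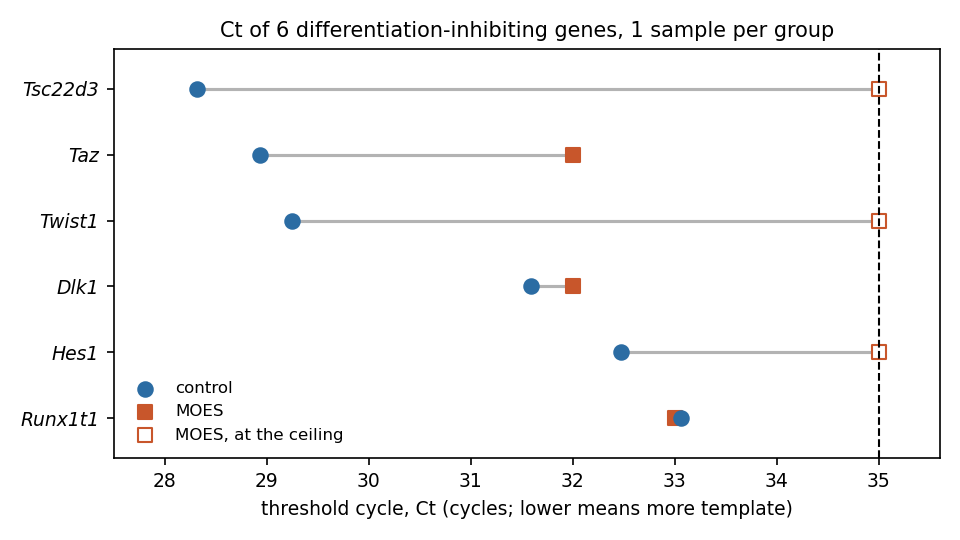
Ct in cycles (horizontal axis) of the 6 genes in the control sample (circles) and the MOES sample (squares, open at the ceiling), joined by a line for each gene, with the ceiling of 35 dashed. Tsc22d3, Twist1 and Hes1 end at the ceiling, and Taz moves from 28.93 to 32. For Dlk1 and for Runx1t1 the control and MOES points of the gene lie at most 0.41 cycles apart.

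Promoter sequences are shown for Hes1 and Tsc22d3, since both had a MOES well at the ceiling. Of the 5 genes looked up in the RefSeq promoter table (GRCh38.p14), these 2 had an entry, and DLK1, TWIST1 and TAFAZZIN had none. Each sequence is the 250 bases before the start of transcription, written 5′ to 3′ on the strand of the gene. The HES1 sequence lies on the plus strand at chr3:194135898-194136147. Its capitals mark TGGGAA, the core of the motif of RBPJ, which is the DNA-binding partner of Notch.
HES1: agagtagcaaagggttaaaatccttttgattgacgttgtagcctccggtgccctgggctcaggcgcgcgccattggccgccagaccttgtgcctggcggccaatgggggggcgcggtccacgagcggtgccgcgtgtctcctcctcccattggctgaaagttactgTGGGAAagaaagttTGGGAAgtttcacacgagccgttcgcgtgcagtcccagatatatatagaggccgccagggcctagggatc

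The pair of TGGGAA matches began 84 and 70 bases before the start. Searched on both strands, 20.8% of the 35116 promoter windows of this length hold at least 1 such match. The HES1 window also held 3 matches to the N-box CACNAG, the type of site that HES proteins bind, and 3 to CCAAT. At least 1 N-box match is held by 32% of the windows, and the same share holds at least 1 CCAAT match. The HES1 window held no match to TATAAA, nor to the E-box or the glucocorticoid receptor half-site searched in TSC22D3. None of the matches overlapped.

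TSC22D3 had 4 entries, and the one shown is the only one with a TATAAA match, which is in capitals. It lies on the minus strand at chrX:107717063-107717312.
TSC22D3: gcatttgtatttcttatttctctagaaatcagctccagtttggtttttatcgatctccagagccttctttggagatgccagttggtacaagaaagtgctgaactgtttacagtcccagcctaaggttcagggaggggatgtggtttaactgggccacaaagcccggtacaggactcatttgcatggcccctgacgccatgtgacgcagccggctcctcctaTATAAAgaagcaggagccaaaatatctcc

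The TATAAA match began 29 bases before the start, and 10.7% of all windows hold one. The window also held 4 matches to the E-box CANNTG, the site class of TWIST1 and its relatives. A match to the E-box, in any number, is held by 61.8% of all windows. None of the other TSC22D3 entries held an E-box match. AGAACA, searched as a glucocorticoid receptor half-site, matched in none of the 4 TSC22D3 entries and in 12.4% of all windows. None of these matches overlapped either. A match describes these letters only and is not a measured binding site.

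Tsc22d3 encodes GILZ, a leucine zipper protein that glucocorticoids induce and that represses transcription of PPAR gamma in precursor cells. Its Ct went from 28.32 untreated to 35 with MOES. It was the earliest of the 6 wells in the control, with a level of 9.45% of the reference mean on the linear scale of the delta Ct. The difference of 6.67 cycles in delta Ct is the whole distance to the ceiling, so the true difference may be larger. The log2 fold change was -6.67 or lower, second from the lowest of the 84 genes when those at the ceiling are entered at their bound.

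Twist1 encodes a helix-loop-helix factor of mesodermal tissue that binds the coactivator PGC-1 alpha in brown fat cells and restrains its targets. Its Ct went from 29.25 to 35, again the full distance to the ceiling. Its log2 fold change was -5.74 or lower. The control level was 4.96% of the reference mean, and the MOES level was at most 0.0928%, the value that a Ct of 35 gives.

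Few wells that began so early ended at the ceiling. The 19 genes at 35 in the MOES sample alone, 22.6% of the array, had a control Ct from 28.18 to 34.34. Ordered by control Ct, Egr2 was the earliest of them, Tsc22d3 the second at 28.32 and Twist1 the third at 29.25. Of the 30 other genes at least as early as Twist1 in the control, 2 ended at 35, namely Egr2 and Tsc22d3. Among the 10 other genes within 0.5 cycle of Twist1 in the control, the Ct moved by between -1.82 and 3.24 cycles, with a median of 2.21, and none moved later by as much as Twist1. Among the 9 such genes around Tsc22d3 the median was 3.24 cycles, and only Egr2, at 6.82, moved later by more than Tsc22d3, at 6.68. The reference gene Gapdh, which went from 28.46 to 35, made the same move, so Tsc22d3 and Twist1 have no known direction relative to Gapdh.

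**Figure D2:**
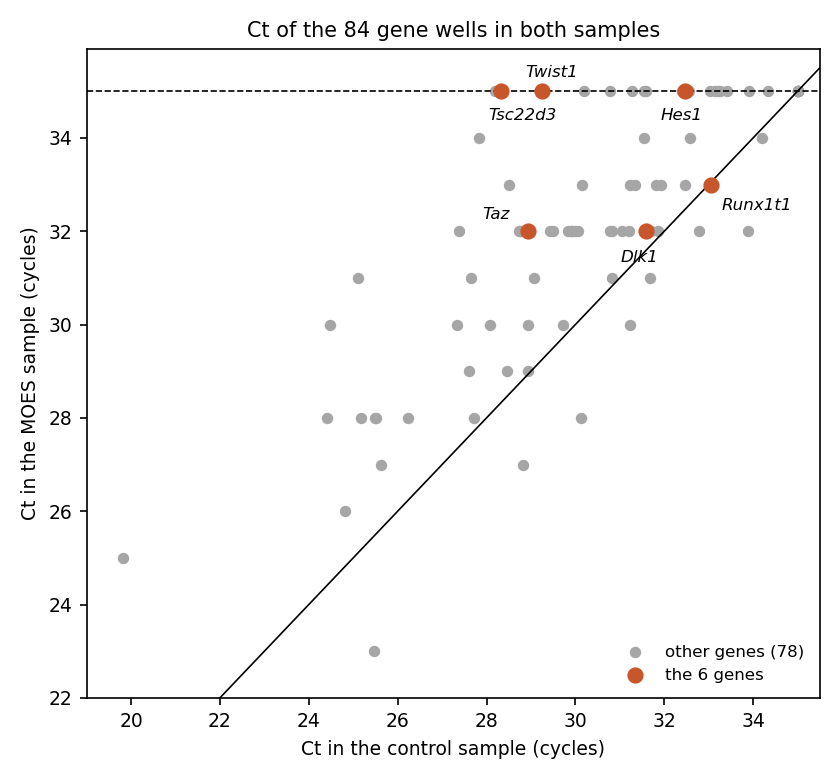
Ct in the MOES sample against Ct in the control sample, in cycles, for the 6 genes (orange, named) and the 78 other genes (grey), with the line of equal Ct and the ceiling of 35 (dashed). Tsc22d3 and Twist1 sit at the left end of the row of genes at 35, and Dlk1 and Runx1t1 lie next to the line of equal Ct.

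Tsc22d3 and Twist1 occupied adjacent wells of the plate. The wells on either side of this pair held Tcf7l2 and Ucp1, which went from 28.77 and 29.5 to 32. Both neighbours were thus measured under the ceiling.

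Hes1 encodes a repressor that Notch signalling switches on, and raised levels of it hold back C/EBP alpha and PPAR gamma in precursor cells. Its Ct was 32.47 untreated and 35 with MOES. The well started late, at 0.532% of the reference mean, and only 2.53 cycles separated it from the ceiling. This gave a log2 fold change of -2.52 or lower. The bound is small because the distance was short, and it does not show that Hes1 differed less than Tsc22d3 or Twist1. Of the 6 other genes within 0.5 cycle of Hes1 in the control, 3 were also at 35 in the MOES sample.

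The gene under the symbol Taz needs a word on its identity. The deposited annotation describes it as tafazzin, the acyltransferase that remodels cardiolipin in mitochondria. The brake on adipocyte formation that shares this symbol is another protein, the Hippo pathway coactivator encoded by WWTR1, which binds and restrains PPAR gamma. The RefSeq gene table lists TAZ as a synonym of both TAFAZZIN and WWTR1. By that description the well therefore does not report on the coactivator, although the study grouped it with genes against adipogenesis.

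Taz went from a Ct of 28.93 to 32. Both wells were under the ceiling, which makes Taz the one gene of the 6 with a measured difference past a limit. On the log2 scale the fold change was -3.06, a level 8.34-fold lower. Since the MOES value is given to whole cycles, the fold change lies between 0.0848 and 0.170 if that value is off by 0.5 cycle either way. The difference of 3.07 cycles is larger than 2 well SDs, 1.06 cycles. However, the RTC wells that gave this SD themselves moved later, by at least 2.9, 2.99 and 3.59 cycles. The part of reverse transcription in the difference of Taz, or of the other genes, was not tested. The level of Taz went from 6.19% of the reference mean to 0.743%. Among the 11 other genes within 0.5 cycle of Taz in the control, the median move was 2.58 cycles and 5 moved further than Taz.

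Dlk1 encodes Pref-1, a membrane protein with repeats like those of epidermal growth factor that precursor cells carry and shed, and that is lost as they turn into adipocytes. Its Ct was 31.59 untreated and 32 with MOES. The log2 fold change was -0.40, and the difference of 0.41 cycles is smaller than the well SD. With the MOES value assumed off by at most 0.5 cycle either way, the fold change runs from 0.536 to 1.07, which spans no difference. A larger offset was not tried. Dlk1 and Taz thus had the same Ct of 32 in the MOES sample, whereas in the control the Ct of Taz minus that of Dlk1 was -2.66 cycles. That value was shared by 21 of the 84 genes. Of the 13 other genes within 0.5 cycle of Dlk1 in the control, 9 moved later by more than Dlk1 and 3 ended at 35, so a larger move could have been recorded.

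Runx1t1 encodes a corepressor, also known as ETO or MTG8, that hinders C/EBP beta early in the differentiation of precursor cells. It had the latest control well of the 6, at 33.06, and with MOES it was at 33. It was the only one of the 6 that was not later in the MOES sample. The log2 fold change was 0.07, and the fold change runs from 0.742 to 1.48 when the MOES value is shifted by 0.5 cycle either way. The well was 1.94 cycles from the ceiling in the control. Of the 7 other genes within 0.5 cycle of it, 6 moved later by more than Runx1t1 and 5 ended at 35.

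The order of the levels differed between the samples. In the control, from the earliest well to the latest, it was Tsc22d3, Taz, Twist1, Dlk1, Hes1 and Runx1t1, over a span of 4.74 cycles. Taz and Twist1 were 0.32 cycles apart, less than the well SD, and the other neighbours were between 0.59 and 2.34 cycles apart. In the MOES sample Dlk1 and Taz shared the earliest place at 32, Runx1t1 followed at 33, and the 3 genes at 35 have no order among them. Tsc22d3, first in the control, was thus behind Runx1t1, last in the control, by at least 2 cycles. The Ct of a gene also depends on its primers and the length of its product, so these orders are descriptions of the wells.

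The 6 genes had a median log2 fold change of -2.79, against -1.77 over all 84 genes. In this median the 3 genes at the ceiling are entered at their bounds. With Ct above 32 set to 32, the median of the 6 genes minus that of the array was -0.885. Over genes under 35 in both samples, 3 of the 6 and 59 of the array, the median was -0.40 for the 3 genes, which is 1.25 above that of the array, -1.65. Leaving out genes at 35 removes those with the least template with MOES, so this reversal does not show that the ceiling lowered the median. At the ceiling in the MOES sample alone were 3 of the 6 genes, beside 22.6% of the array.

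Other genes of the same routes were read from lists drawn up by textbook role. Of 13 other inhibitors of adipocyte formation, among them WNT and hedgehog ligands, GATA and KLF factors and sirtuins, 9 were below 0.5 and 0 above 1.5. With genes at the ceiling entered at their bound, Wnt3a, a WNT ligand, was lowest in that list at 72.0-fold lower, from a Ct of 27.82 to 34, but the 3 genes of the list at 35 may be lower. Ddit3, the stress-induced C/EBP partner CHOP, was highest with a fold change of 0.959, from 28.93 to 29. The median of the list was -1.73, near that of the array. Among these 13 as among the 6 genes, fold changes ranged from near 1 to far below 0.5.

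The factors that the brakes act on gave a similar spread. Of 6 adipogenic factors, 4 were below 0.5 and 1 above 1.5, with a median log2 fold change of -2.90. Ppargc1a, which encodes the PGC-1 alpha that TWIST1 binds, was the lowest of the 5 measured under the ceiling at 45.9-fold lower, and Srebf1, at 35, was at least 5.86-fold lower. Pparg, the receptor that GILZ restrains, was 36.0-fold lower, and its Ct of 19.82 made it the earliest gene well of the control. Cebpb, whose product the Runx1t1 protein hinders, was 9.51-fold lower. Cebpa, which encodes the C/EBP alpha that Hes1 holds back, lay between the limits with a fold change of 0.578, whereas Cebpd had one of 5.58. Of 9 adipocyte products, 8 were below 0.5 and 1, leptin (Lep), was above 1.5. Their median was -1.75, and Adig was the lowest of the 8 measured under the ceiling at 59.3-fold lower. Genes on both sides of the brakes were therefore mostly below 0.5 in the MOES sample, as was the array as a whole.

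**Figure D3:**
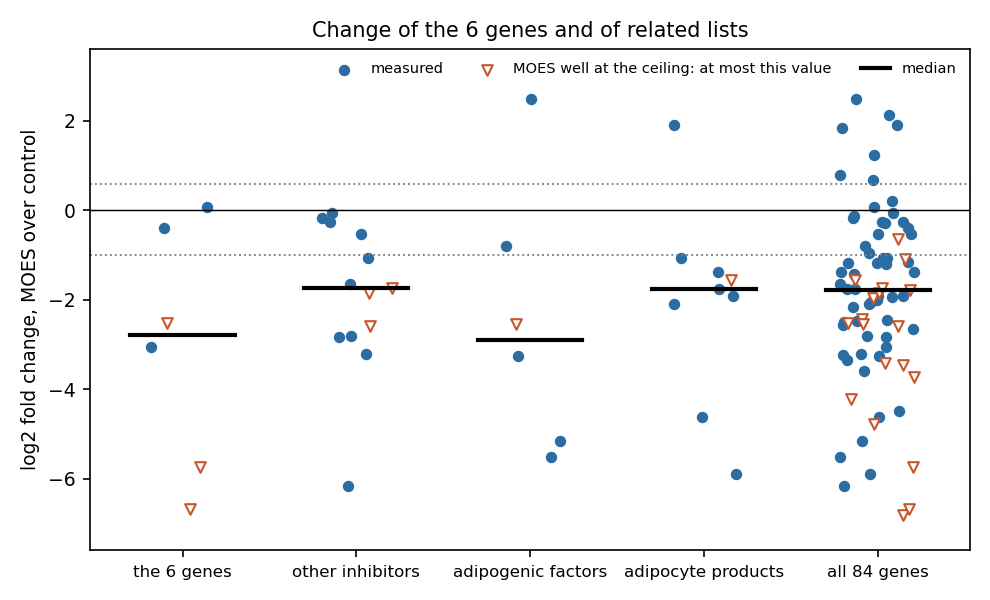
Log2 fold change of MOES over control (vertical axis) for the 6 genes, 13 other inhibitors, 6 adipogenic factors, 9 adipocyte products and all 84 genes, each point a gene, with bars for medians and dotted lines at fold changes of 1.5 and 0.5; open triangles are genes at the ceiling in the MOES sample, known only to be at or below the point, and the 6 genes at 35 in both samples are not drawn. The medians are -2.79, -1.73, -2.90, -1.75 and -1.77 in that order, and every list spans several cycles.

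The genes most like each of the 6 were found as those nearest in the pair of delta Ct values, which with 2 samples measures likeness over 2 points only. For Hes1, Tsc22d3 and Twist1 the MOES point is the ceiling, so their distance to another gene at 35 is that of the control wells alone and does not show likeness with MOES. Taz lay 0.16 cycles from Tcf7l2 and 0.17 from Nr0b2, and these 3 genes were between 8.34-fold and 9.38-fold lower. Dlk1 lay 0.11 cycles from Fgf1 and 0.27 from Wnt5a. Runx1t1 lay 0.60 cycles from Klf3 and 1.04 from Ppard. With 35 entered as a value, the nearest genes were Srebf1 and Wnt10b to Hes1, Egr2 and Wnt3a to Tsc22d3, and Jun and Egr2 to Twist1, all at 35 with MOES except Wnt3a at 34.

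Another reference shifts every gene by one constant, so differences between the 6 genes do not depend on it. B2m, Gusb or Hsp90ab1 alone gave the 4 genes below 0.5 as above. The mean of all 5 reference genes adds at least 1.49, and it put Dlk1 at 1.09 and Runx1t1 at 1.56 on the log2 scale, both then above 1.5-fold, and left Taz at -1.57. With Gapdh alone Taz turned to 3.47. Actb and Gapdh are themselves at the ceiling, so values against them are minimum values and the 3 genes at 35 have no direction against them.

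**Figure D4:**
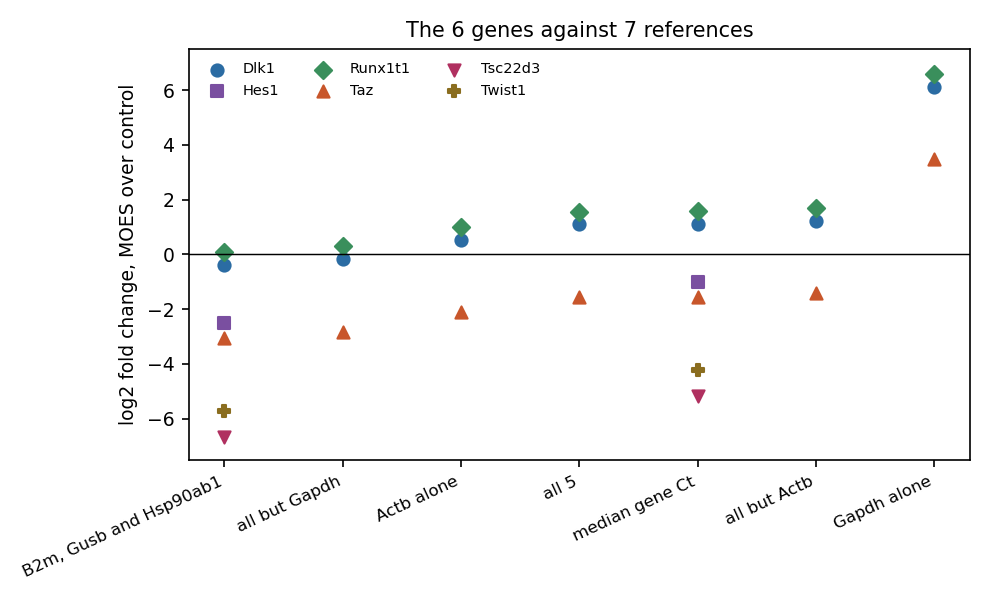
Log2 fold change of MOES over control (vertical axis) of each of the 6 genes against 7 choices of reference (horizontal axis), 1 point per gene and reference. The order of the drawn points is the same under each reference, and Taz turns from -3.06 to 3.47 with Gapdh alone. Hes1, Tsc22d3 and Twist1 are drawn at their bounds, so their true values may be lower and their order is not known. These genes are not drawn where the reference holds Actb or Gapdh, which are at the ceiling with them.

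The genomic DNA control well (MGDC) was at 29.9 untreated and at 29.56 with MOES. It was earlier than all 6 genes in the MOES sample and earlier than 3 of them, Dlk1, Hes1 and Runx1t1, in the control. Tsc22d3, Twist1 and Hes1 were at 35 in the sample in which MGDC was at 29.56. The part of genomic DNA in the Ct of the late wells was not tested.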

How the data were processed

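Gene expression was measured by quantitative PCR with SYBR Green in 1 control and 1 MOES sample. The authors reverse transcribed total RNA, ran a 96-well adipogenesis array and computed values with the manufacturer's software. Other deposited values, used here, are the Ct and the delta Ct. The header calls them averages, the number of averaged wells is not given in the sources used here, and the SD columns hold no numbers. The deposited tables of linear levels and of the authors' fold changes of MOES over control were not used. Columns were assigned by name.

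Each of the 31 subsets of the 5 reference genes was tried as the reference, and the best one matched the deposited delta Ct within 0.00569 cycles. Fold changes were computed from the Ct. Limits of 1.5 and 0.5 are those of the study. Genes at 35 in both samples entered medians as no change. The spread came from the SD of the 3 RTC wells, multiplied by the square root of 2, and covers late wells of 1 sample without biological variation. The fold change calculation was run on simulated wells without noise, which checks its arithmetic only and not these plates.

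The members and lists were chosen with earlier results of these data known. The text names the 6 genes, the reference and control wells, and the markers of cell type. It also names the lowest and highest gene of each list and the 2 nearest genes of each member. Pparg, Cebpa, Cebpb and Ucp1 were named, and the window of 0.5 cycle was chosen, after values had been seen. Alternatives covered the reference, late wells, the source of the delta Ct, rounding and the limits. Computations used Python 3.11.15, numpy 2.4.6, pandas 2.3.3 and matplotlib 3.10.9.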

Additional observations from a re-analysis of the deposited data

Results flagged for a closer look

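The genomic DNA control well, which no comparison of genes uses, was earlier with MOES than without, by a log2 fold change of 0.35 relative to the reference genes. The difference is smaller than the SD of 0.530 cycles between a pair of wells.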

How the results depend on the processing

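No paired analysis was possible because both arms held a single sample. The 4 genes below 0.5 and 0 above 1.5 were found again with B2m, Gusb or Hsp90ab1 alone, with the authors' delta Ct, with MOES wells shifted by 0.5 cycle, with a rounded control and with 3 other pairs of limits. With 35 entered as a value, they were found with all reference genes but Gapdh too, Actb alone gave 1 gene above 1.5 and a median of -1.85, the mean of all 5 reference genes 2 above and a median of -1.30, and all but Actb 2 above, 3 below, without Hes1, and a median of -1.16. Against references that hold Actb or Gapdh the 3 genes at 35 have no known direction. The median Ct of the gene wells gave 2 above and a median of -1.29. Gapdh alone gave 5 above, 0 below and a median of 3.74, with Taz at 3.47, and 2 of those 5 are at 35 like Gapdh. These shifts are constants by construction. Setting Ct above 32 to 32 gave 3 genes below, a median of -1.57, a difference from the array's median of -0.885 and no value for Hes1 and Runx1t1. Leaving out genes at 35 gave 1 gene below 0.5, a median of -0.40 and a difference from the array's median of 1.25 in place of -1.01, since it removes the 3 members at the ceiling. The Ct ceiling, the whole-cycle MOES values and the lack of replicates limit every value.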
